A study of Mus musculus and Homo sapiens with 4 samples.

Results

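The luminal lineage transcription factors described here are 9 genes taken from a list of names, with no threshold on their values: FOXA1, GATA2, GATA3, TBX3, TRPS1, TFAP2A, TFAP2C, MSX2 and SOX9. That list and the other gene lists below were chosen with earlier results of these data known. Each was found on 1 of the 25932 entries of the human RPKM data, so no choice between entries was needed. RPKM (reads scaled by transcript length and by library size) allows for length, so levels of different genes can be set side by side. The human samples are labelled VCaP and VCaP ERα. VCaP is described as a prostate cancer cell line, at passages 5 to 6. VCaP ERα is described as such a line overexpressing the oestrogen receptor ERα, at passages 4 to 5. The paper states that it was made from VCaP cells. Both samples were grown in serum-containing DMEM, with no hormone treatment named for them. VCaP ERα is a stable line, and the sources used here do not say whether it is a clone or a pool. The label of the VCaP sample names no empty vector. Each gave 1 strand-marked library, described as poly-A- and made after removal of ribosomal RNA. Fibroblasts of C57BL/6 mouse embryos (E13.5), wild type or NEAT1 knockout and at passages 2 to 3, gave 1 poly-A library each.

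Luminal cells are the secretory cells that line the ducts of glands such as the prostate and the breast, and a small set of transcription factors keeps their identity. FOXA1 is a pioneer factor: it opens compacted chromatin so that steroid hormone receptors such as ERα can reach their sites. GATA2 is active in the prostate and in blood progenitors, whereas GATA3 is the main GATA factor of luminal breast cells and works beside ERα. TRPS1 carries a GATA-type zinc finger and acts mostly as a repressor. TFAP2A and TFAP2C are AP-2 factors, active in skin and breast. TBX3 is a T-box repressor, MSX2 a homeobox factor that responds to bone morphogenetic proteins, and SOX9 a factor of epithelial progenitors and of cartilage.

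The labels were compared with marker genes before the factors were examined. ESR1, the gene of ERα, was at 15.7 RPKM in the library labelled VCaP against 209 RPKM in VCaP ERα. All 12 genes of a prostate luminal list were higher in VCaP ERα: they summed to 20.3 RPKM in the library labelled VCaP, against 2221 RPKM in VCaP ERα. ACPP, which encodes prostatic acid phosphatase, had 2.11 and 694 RPKM. In the former, KLK4 and FOLH1 were listed at 0, KLK2 had 0.0264 RPKM and KLK3 had 0.176 RPKM. The library labelled VCaP thus lacked most of the defining transcripts of prostate luminal cells, against its label. A list of 15 luminal breast genes went from a sum of 3722 RPKM to 784 RPKM. Of these genes, 5 lay below a log2 ratio of -2 and 2 above 2, beside 6.56% and 2.27% of all entries. KRT19, a keratin of luminal cells, had 1625 and 5.44 RPKM, and TFF3, a secreted trefoil peptide, had 285 and 14.5 RPKM. AGR2, a chaperone of secretory cells, had 114 and 727 RPKM. It thus held most of the sum of this list in VCaP ERα. The fall of the sum rested largely on KRT19 and on TFF1, another trefoil peptide. TFF1 had 1596 RPKM in the library labelled VCaP and a log2 ratio of -7.64. Of the 15 genes, 10 were lower and 5 higher in VCaP ERα. Their median log2 ratio was -1.19, or -0.60 after centring on the median of expressed entries. The values of all entries summed to 267630 RPKM in the library labelled VCaP, with 8757 entries at 0, and to 196948 RPKM with 3607 at 0 in VCaP ERα. With 1 library per group no result can be given without it, no spread between replicates exists, and no test was made. The overexpression of ERα and any other difference between these cultures cannot be told apart.

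The 9 factors did not move together. FOXA1, GATA2 and SOX9 differed by less than 1.5 times in RPKM as deposited, GATA3, TRPS1, TFAP2C and MSX2 were much lower in VCaP ERα, TBX3 was higher there, and TFAP2A was low in both. Differences are given as log2 ratios of VCaP ERα over the library labelled VCaP, with 1 RPKM added to each value, and a ratio above 2 or below -2 is called past the limit. Below -2 lay 4 of the 9 factors, beside 6.56% of all entries and 12.2% of the 13954 entries with at least 1 RPKM in at least 1 library, which all 9 factors reached. Above 2 lay 1 factor, beside 2.27% of all entries and 4.21% of those 13954. Because the 9 were chosen with earlier results of these data known, the counts are descriptive and not independent of the data. After centring on the median of expressed entries, 3.35% of all entries lay below -2 and 4.77% above 2, and the factors past the limit still numbered 4 and 1. The median log2 ratio of the 9 was -0.56, whereas that of all entries was 0 and that of the 9754 entries that reached 1 RPKM in both was -0.59. Relative to that last shift, the median of the factors was 0.028. It was -1.10 with 0.1 added and -0.72 after quantile normalization, and in each case it is the ratio of TFAP2A. In bulk RNA, fewer cells with a transcript and less of it per cell cannot be told apart.

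**Figure D1:**
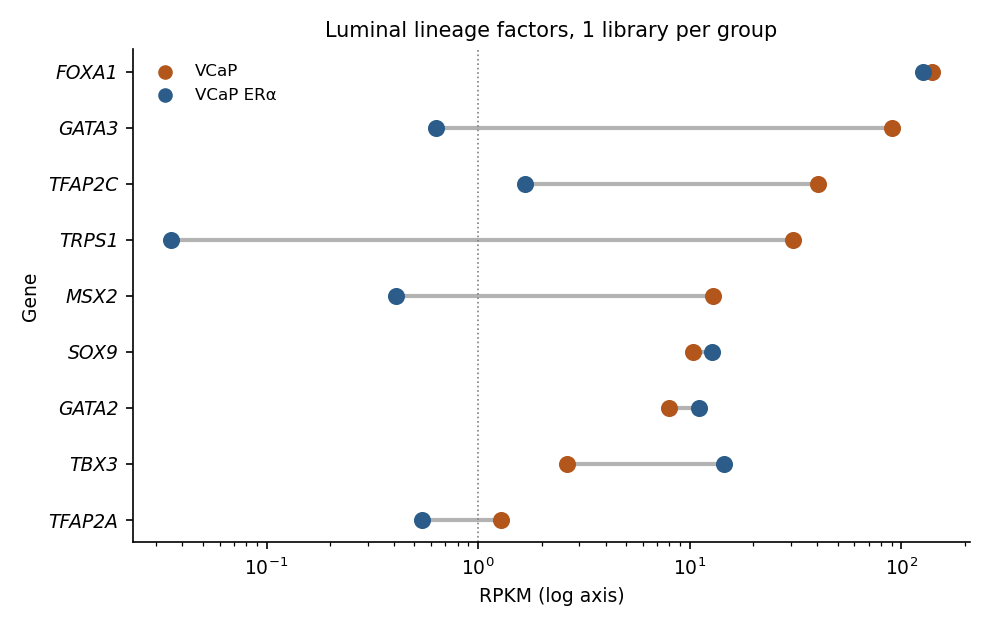
RPKM (log axis) of each of the 9 genes in the VCaP-labelled library (orange) and in VCaP ERα (blue), 1 library each, joined by a grey line; the dotted line marks 1 RPKM. The points of FOXA1, SOX9 and GATA2 lie close together, those of GATA3, TFAP2C, TRPS1 and MSX2 run far to the left in VCaP ERα, and TBX3 runs to the right.

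FOXA1 (chromosome 14, 37128942 to 37134240, coordinates here and below as in the files, hg18) was the highest of the 9 factors in both libraries. It was at 139 RPKM in the library labelled VCaP against 127 RPKM in VCaP ERα, ranks 237 and 197 of the 25932 entries. Its log2 ratio was -0.13, and it turned to 0.46 when the shift of expressed entries was taken off and to 0.21 after quantile normalization, so its direction depended on the scaling. Its paralogs FOXA2 and FOXA3, factors of liver and gut endoderm, were listed at 0 in the library labelled VCaP and had 0.154 and 0.661 RPKM in VCaP ERα. FOXA1 therefore made up 99.4% of the summed RPKM of the 3 FOXA genes even in VCaP ERα.

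The GATA factors diverged. GATA2 (chromosome 3, 129680960 to 129694718) was at 8.01 RPKM in the library labelled VCaP against 11.0 RPKM in VCaP ERα (log2 ratio 0.42). This ratio was 1.01 after centring and 1.15 after quantile normalization. GATA3 (chromosome 10, 8136673 to 8157170) had 90.5 RPKM and 0.633 RPKM, a log2 ratio of -5.81, and 38 was its rank among all entries ordered from the largest fall. The order of this pair was thus exchanged: GATA3 stood above GATA2 in the library labelled VCaP and below it in VCaP ERα. The 6 GATA genes summed to 103 RPKM in the former and 14.2 RPKM in the latter. GATA3 made up 88.2% of this in the library labelled VCaP against 4.45% in VCaP ERα, whereas GATA2 went from 7.81% to 77.4%. Of the other members of the family, GATA6, a factor of gut and heart, had 4.07 and 0.440 RPKM, and GATA5 had 0.0561 and 2.06 RPKM. GATA1, the factor of red blood cells, was listed at 0 in both libraries.

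TRPS1 (chromosome 8, 116489900 to 116750402) was at 30.7 RPKM in the library labelled VCaP against 0.0354 RPKM in VCaP ERα. Its log2 ratio was -4.94 with the value of 1 added, and -7.83 when 0.1 was added in place of 1, because the second value is close to 0. In VCaP ERα it was the lowest of the 9 factors, with a rank of 21678 among all entries, after a rank of 1667 in the library labelled VCaP. Its entry spans 261 kb, the longest of the 9, and covers 3 known-gene identifiers. ZFPM1, which encodes a cofactor that binds GATA factors, had 1.34 and 0.0392 RPKM, a log2 ratio of -1.17 that did not pass the limit with 1 added and was -3.37, past it, with 0.1 added. Its relative ZFPM2 was listed at 0 in both libraries.

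Of the AP-2 factors, TFAP2C (chromosome 20, 54637765 to 54647745) was at 40.2 RPKM in the library labelled VCaP against 1.66 RPKM in VCaP ERα (log2 ratio -3.95). TFAP2A (chromosome 6, 10504902 to 10527783) had 1.28 and 0.543 RPKM. It was the lowest of the 9 factors in the library labelled VCaP, and its log2 ratio of -0.56 became 0.028 relative to the median of expressed entries. TFAP2B, TFAP2D and TFAP2E were below 1 RPKM in each of them. The 5 AP-2 genes summed to 41.5 RPKM in the library labelled VCaP, of which TFAP2C was 96.8%, and to 2.73 RPKM in VCaP ERα, of which it was 60.8%. Among the genes that act on AP-2 factors, the coactivator CITED4 had 13.6 and 0.319 RPKM (log2 ratio -3.47). The related coactivator CITED2 was high in both, with 104 and 59.1 RPKM, and the inhibitor KCTD15 had 4.94 and 1.88 RPKM.

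TBX3 (chromosome 12, 113592442 to 113606352) was the one factor above the limit. It was at 2.64 RPKM in the library labelled VCaP against 14.4 RPKM in VCaP ERα, with a log2 ratio of 2.09, or 2.68 relative to the median of expressed entries. In the former only TFAP2A was lower among the 9 factors, and in the latter only FOXA1 was higher. Its closest relative TBX2, also a repressor, went the opposite way, from 25.2 to 0.665 RPKM with a log2 ratio of -3.97. Among the 12 T-box genes measured, TBX2 held 85.6% of the summed RPKM in the library labelled VCaP against 3.03% in VCaP ERα, and TBX3 held 8.97% and 65.8%. The sum itself was 29.4 and 21.9 RPKM. TBX15 and TBX1, both listed at 0 in the library labelled VCaP, had 2.78 and 1.70 RPKM in VCaP ERα.

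MSX2 (chromosome 5, 174084181 to 174090508) was at 12.9 RPKM in the library labelled VCaP against 0.409 RPKM in VCaP ERα (log2 ratio -3.30). Its paralog MSX1 was low in both, with 0.552 and 0.725 RPKM, so that MSX2 stood above MSX1 in the former and below it in the latter. SOX9 (chromosome 17, 67628756 to 67634155) had 10.3 and 12.8 RPKM, a log2 ratio of 0.29 that was 0.88 after centring and 1.02 after quantile normalization. SOX8 and SOX10, the other genes of its group, stayed below 1 RPKM in both libraries, and SOX9 held 98.2% and 90.6% of the sum of the 3. SOX5 and SOX6, which act with SOX9 in cartilage, had at most 0.0730 RPKM.

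**Figure D2:**
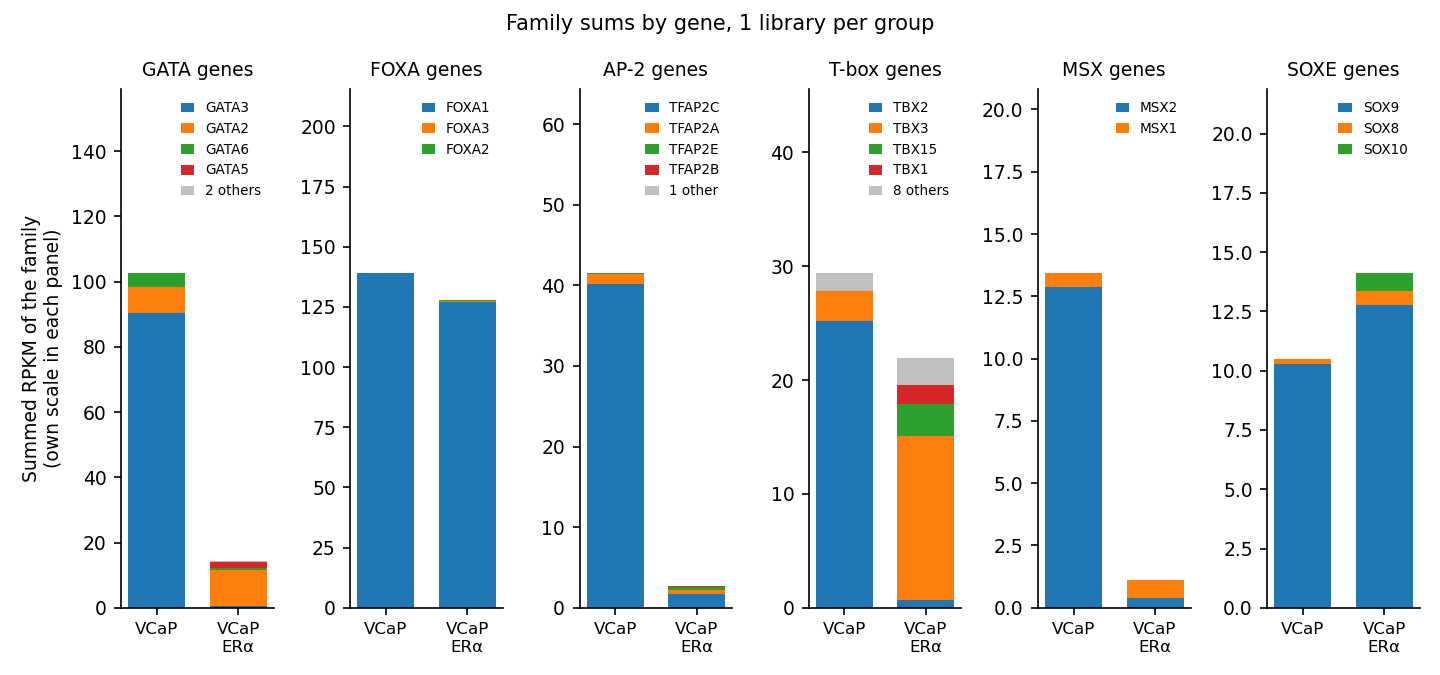
Summed RPKM of the genes of each family in the VCaP-labelled library and in VCaP ERα, 1 library each, with the 4 genes of highest mean RPKM in colour, any other genes in grey and a scale of its own in each panel. GATA3 fills 88.2% of the GATA bar of VCaP and GATA2 77.4% of that of VCaP ERα, TBX2 and TBX3 exchange places in the same way, and the FOXA and SOXE bars are nearly all FOXA1 and SOX9 in both.

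The order of the 9 levels thus differed between the libraries. From high to low it was FOXA1, GATA3, TFAP2C, TRPS1, MSX2, SOX9, GATA2, TBX3 and TFAP2A in the library labelled VCaP. In VCaP ERα it was FOXA1, TBX3, SOX9, GATA2, TFAP2C, GATA3, TFAP2A, MSX2 and TRPS1. Without replicates it cannot be said which neighbours in either order differ beyond their spread. All 9 factors had at least 1 RPKM in the library labelled VCaP, and 5 did in VCaP ERα. Their summed level was 336 RPKM in the former and 169 RPKM in the latter. Without FOXA1 these sums were 196 and 41.5 RPKM.

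**Figure D3:**
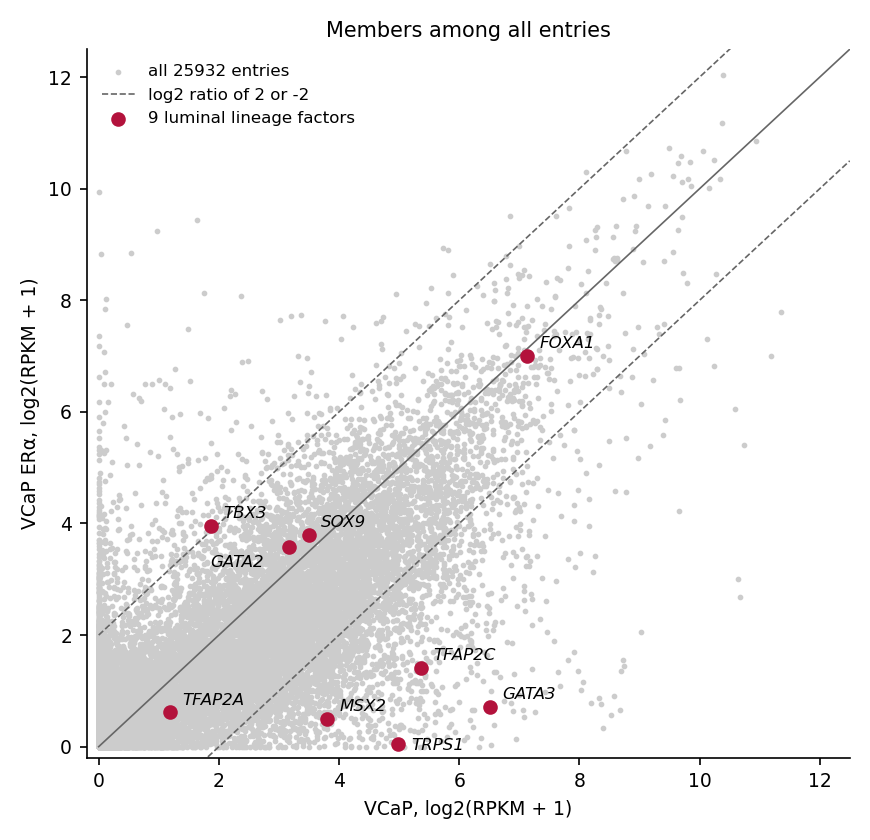
log2(RPKM + 1) of all 25932 entries (grey) in the library labelled VCaP (horizontal axis) and in VCaP ERα (vertical axis), with the 9 factors in red, the line of equal values and dashed lines at log2 ratios of 2 and -2. GATA3, TRPS1, TFAP2C and MSX2 lie below the lower dashed line, TBX3 just above the upper one, and the other 4 between them.

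Lists of related genes were described by counts and medians, with the same limits of 2 and -2. Over all entries, 6.56% lay below -2 and 2.27% above 2, and with 0.1 added 11.4% and 16.3% did. Of the 13954 entries with at least 1 RPKM in a library, 12.2% lay below -2 and 4.21% above 2. These shares also stand beside the counts of the marker lists below. Each list is small, and no count was tested against them. Of 23 paralogs of the factors, 1 lay below -2 (TBX2) and 0 above 2, with a median log2 ratio of 0.15. Most paralogs were barely detected: 2 reached 1 RPKM in the library labelled VCaP and 3 did in VCaP ERα. With 0.1 added in place of 1, 7 paralogs lay above 2 and 2 below -2. Of 14 partners, that is cofactors and inhibitors of the factors, 12 were lower in VCaP ERα, 2 of them below -2 (4 with 0.1 added), and the median was -0.75. Expressed entries as a whole had a median of -0.59, and relative to that shift the median of the partners was -0.16. The 12 include genes that hardly differed, such as CITED1 with 0.333 and 0.315 RPKM. The Groucho corepressor TLE1, a partner of FOXA1, had 13.9 and 0.525 RPKM (log2 ratio -3.29), and TLE2 had 3.71 and 0.305 RPKM, whereas TLE3, with 9.36 and 5.33 RPKM, differed less. RNF4, a ubiquitin ligase that binds TRPS1, had 18.0 and 8.08 RPKM.

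Other regulators of luminal cells split in both directions. Of 20 genes, 6 lay above 2 and 7 below -2, beside 2.27% and 6.56% of all entries, with a median log2 ratio of -0.99. The counts were 6 and 5 after centring, quantile normalization or rescaling to a common sum. HOXB13, a homeobox factor of the prostate, had 0.0479 and 54.6 RPKM, a log2 ratio of 5.73. EHF, an ETS factor of epithelia, had 0.801 and 38.0 RPKM. Lower in VCaP ERα were KLF5 (21.8 and 0.978 RPKM), a factor of basal and progenitor cells, the ETS factor ELF3 (28.7 and 1.78 RPKM) and ZNF217 (318 and 32.2 RPKM), an oncogene of breast cancer on chromosome 20. SPDEF, an ETS factor of secretory luminal cells, had 87.0 and 192 RPKM, and XBP1, which builds the secretory apparatus, had 623 and 182 RPKM. HOXB13 is among the genes of this list that are also on the prostate luminal list.

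**Figure D4:**
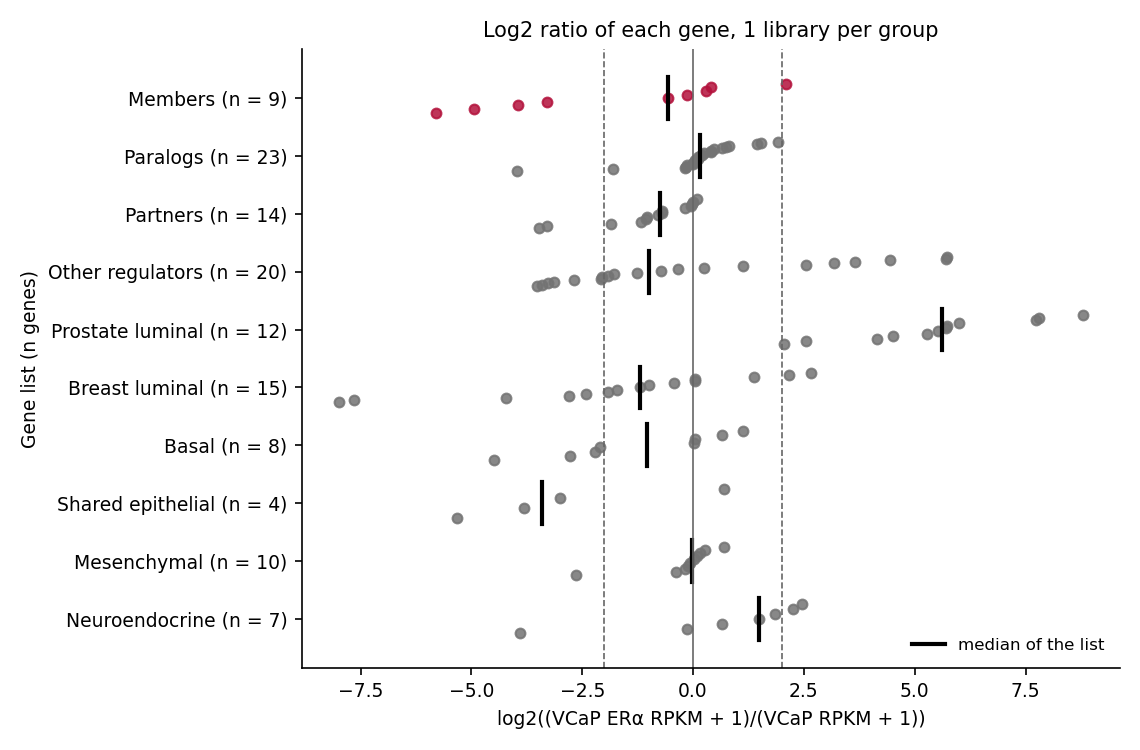
Log2 ratio of VCaP ERα over VCaP for each gene of the 9 factors (red) and of 9 other lists (grey), with the median of each list as a black bar and dashed lines at 2 and -2. All 12 prostate luminal genes lie above 2, the shared epithelial genes other than EPCAM lie below -2, and the factors and the other regulators spread over both sides.

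Markers of other cell types moved beside the factors as follows. All 4 genes shared by epithelia were present in both libraries, from 50.7 to 1708 RPKM in the library labelled VCaP and from 14.4 to 82.6 RPKM in VCaP ERα. KRT8, KRT18 and CDH1 lay below -2, and EPCAM had 50.7 and 82.6 RPKM. The 8 basal genes summed to 59.1 RPKM in the library labelled VCaP against 4.55 RPKM in VCaP ERα. Of the 8, 4 were lower and 4 higher in VCaP ERα, and the 4 lower ones lay below -2 (2 after centring). KRT17 had 38.9 and 0.774 RPKM, KRT6A 7.41 and 0.227 RPKM, and TP63, the factor that marks basal cells, 3.79 and 0.0400 RPKM. The basal keratins KRT14 and KRT5 were low in both, with 0 and 1.19 RPKM and with 0.0259 and 0.623 RPKM. Of 10 mesenchymal genes, 5 were higher and 5 lower, with a median log2 ratio of -0.02. Their sums of 8.15 and 2.98 RPKM rested on FN1, a matrix protein with 5.65 and 0.0723 RPKM, and without it they were 2.50 and 2.91 RPKM. Of 7 neuroendocrine genes, 2 lay above 2 and 1 below -2, with a median log2 ratio of 1.48. CHGA and CHGB, secretory granule proteins that were listed at 0 in the library labelled VCaP, had 3.80 and 4.53 RPKM. Leukocyte and endothelial genes, 6 and 5 of them, were below 1 RPKM throughout. GATA2 and GATA3 are also blood factors, and PTPRC, which marks leukocytes, had 0.0142 RPKM in the library labelled VCaP and was listed at 0 in VCaP ERα. The part of the prostate, breast, basal and neuroendocrine genes in the differences of the 9 factors was not tested.

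The likeness of single genes to each factor was measured as the distance of log2(RPKM + 1) over the 2 libraries, among 66 genes made up of the factors, their paralogs, partners and other regulators. With 2 libraries this describes only a pair of levels. MSX2 lay nearest to CITED4 (0.12) and TLE1 (0.15). GATA2 and SOX9 were each other's nearest gene (0.38). The nearest to TFAP2C were ELF3 (0.48) and CEBPB (0.75), and to TRPS1 they were TBX2 (0.74) and KLF5 (1.05). FOXA1 was nearest to SPDEF (0.89) and GATA3 to TFAP2C (1.35). TFAP2A was nearest to TBX6 (0.35), a T-box factor with 0.799 and 0.619 RPKM.

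The 9 factors lie on 9 different chromosomes, and 110 other entries had their midpoint within 1 Mb of that of a factor. Of these, 16 lay below -2 and 2 above 2. That is 14.5% and 1.82%, beside 6.56% and 2.27% of all entries. Counted over the 67 neighbours with at least 1 RPKM in at least 1 library, the 16 are 23.9%, beside 12.2% of such entries in general. After centring, 8 neighbours (7.27%) lay below -2 and 5 (4.55%) above 2, beside 3.35% and 4.77% of all entries. After quantile normalization these were 7 (6.36%) and 5 (4.55%), beside 3.84% and 3.87%. With 0.1 added, 29 (26.4%) lay below -2 and 24 (21.8%) above 2, beside 11.4% and 16.3%. Within 250 kb, where fewer entries lie, 1 neighbour lay below -2 and 1 above 2. No share was computed at that distance, so these counts cannot be set beside the shares above. Neighbouring entries can share a locus and are not independent.

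Around the 5 factors past the limit, neighbours differed among themselves. No entry had its midpoint within 1 Mb of that of TRPS1. Next to GATA3, the entry NM_207423 (8132419 to 8135453), 1.22 kb from it, was also lower in VCaP ERα, with 15.8 and 0.453 RPKM and a log2 ratio of -3.53. It was the lowest of the 8 neighbours of GATA3, whose median was -0.26 (-0.76 over the 5 with at least 1 RPKM in a library) and whose highest entry, BC031880, had 0 and 0.175 RPKM. TFAP2C had 18 neighbours with a median of -0.06, which was -1.36 over the 12 of them with at least 1 RPKM in a library. BMP7, a secreted growth factor 529 kb away, had 223 and 1.92 RPKM, a log2 ratio of -6.26, and RBM38 and RAE1 were below -2 as well. The 6 neighbours of MSX2 ranged from SFXN1 (log2 ratio -2.05) to HMP19 (2.19). The 5 neighbours of TBX3 ranged from -0.52 for RBM19 to 1.07 for AK096932.

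The factors that did not pass the limit had neighbours of several kinds. GATA2 had 39, of which 8 lay below -2, and IFT122 (10.2 and 0.526 RPKM) was the lowest. Their median was -0.77, or -1.59 over the 30 with at least 1 RPKM in a library, and 0.66 within 250 kb. The entries closest to GATA2 behaved otherwise: CR595360, which overlaps it, AK097457 and DNAJB8 were listed at 0 in the library labelled VCaP and had 1.00, 0.993 and 1.03 RPKM in VCaP ERα. The highest neighbour of GATA2, DQ585483, is a very short entry (130051002 to 130051034) and went from 0 to 2.44 RPKM. Among all entries, 8757 were at 0 in the library labelled VCaP against 3607 in VCaP ERα, so such rises from 0 are not particular to this locus. Whether the reads were counted by strand is not given in the sources used here, so reads of GATA2 and of the overlapping entry may not be separated. Beside FOXA1, TTC6 (0.0994 and 4.38 RPKM) had a log2 ratio of 2.29 and BC053597 of -1.02, the highest and lowest of 9 neighbours. The median of these neighbours was 0.10, or 1.22 over the 5 with at least 1 RPKM in a library, and 1.93 within 250 kb. SOX9 had 5 neighbours, from BC039327 (0.08) to the zinc transporter SLC39A11 (-3.06, 16.8 and 1.13 RPKM). Around TFAP2A, 20 entries ran from TMEM14C (-2.49) to the fatty acid elongase ELOVL2 (1.49, 5.05 and 16.1 RPKM), and BC037167, which overlaps TFAP2A, had 0 and 0.514 RPKM.

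**Figure D5:**
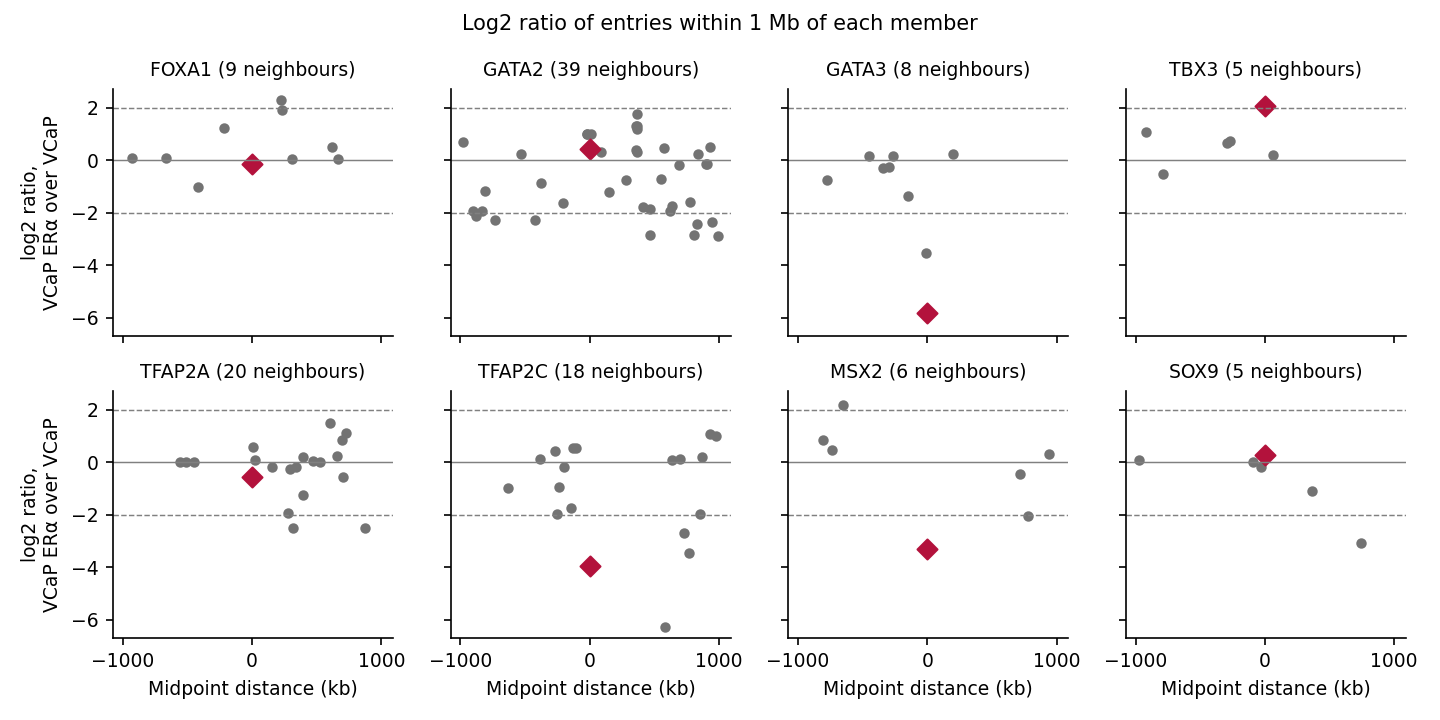
Log2 ratio of VCaP ERα over VCaP for each factor (red diamond at 0 kb) and for the entries whose midpoints lie within 1 Mb of it (grey points, distance in kb), with dashed lines at 2 and -2. TRPS1 had no such neighbour and is not drawn. GATA3 and MSX2 lie below all of their neighbours, TFAP2C below all but BMP7, and TBX3 above all of its own.

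The mouse genes of the same names were examined in the fibroblasts, whose RPKM values were made apart from the human ones, so no level was compared across species. Neat1 was at 29.5 RPKM in wild type against 2.01 RPKM in the knockout (log2 ratio -3.34). None of the 9 genes passed the limit in either direction in this comparison without replicates or a test, beside 0.223% of the 23329 entries above 2 and 0.0171% below -2. Among the 11463 entries that reached 1 RPKM in either library, these shares were 0.454% and 0.0349%. In these libraries 7 of the 9 had at least 1 RPKM in both. Gata2 had 14.7 and 8.40 RPKM, and Gata3 had 4.40 and 2.06 RPKM, the log2 ratio farthest below 0 of the 9 (-0.82). Tbx3 had 11.3 and 16.1 RPKM, the highest ratio (0.47). Msx2 had 6.10 and 3.82 RPKM, Sox9 6.70 and 6.39 RPKM, Trps1 3.09 and 3.47 RPKM, and Tfap2a 1.30 and 1.01 RPKM. Foxa1, with 0.160 and 0.0850 RPKM, and Tfap2c, with 0.0104 RPKM in wild type and listed at 0 in the knockout, were close to 0. The median log2 ratio of the 9 was -0.10.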

How the data were processed

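The authors deposited 1 RPKM value per entry for each library, with no normalization between libraries stated. The submitters' processing notes name CASAVA 1.8 and the builds hg18 and mm10, and the tool that computed RPKM is not given in the sources used here. Read totals were not used here. The ratio of the VCaP libraries was examined over 2146 low entries (under 0.5 RPKM, none at 0), and its commonest value recurred in 38, too few to give relative depth, so no counting interval or floor was computed.

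For each gene the entry of highest mean RPKM that carries its symbol was taken, and log2((RPKM + 1)/(RPKM + 1)) was computed over every entry with no filter. The limit of 2 is that of the study's own selection. With 1 library per group no test was made. The 9 genes and all lists were chosen with earlier results of these data known. Named are the 9 genes, ESR1, in each list of related genes the 3 highest, the 3 lowest and, of the rest, 3 of high mean RPKM, the 3 highest and 3 lowest of marker lists, the 2 nearest genes of each factor, and the highest and lowest neighbour. FOXA2, FOXA3, GATA1, TFAP2B, TFAP2D, TFAP2E, SOX5, SOX10, KCTD15, KLK4, RBM38, RAE1, CR595360, AK097457, DNAJB8, BC037167 and Neat1 were added after their values were seen. The alternatives tried were adding 0.1 in place of 1, keeping entries of at least 1 RPKM, centring, quantile normalization, summed entries, neighbours within 250 kb and, chosen after seeing the data, rescaling to a common sum. The calculation was tested on simulated data. Calculations ran in Python 3.11.15 with pandas 2.3.3 and numpy 2.4.6, and plots in matplotlib 3.10.9. Some genes named by this rule are not reported here. No human sequence was used.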

Additional observations from a re-analysis of the deposited data

How the results depend on the processing

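The number of factors past the limit, 1 above 2 and 4 below -2, was found under every alternative run for it. Summing entries could not change it, since each factor has 1 entry. The minimum of 1 RPKM could not either, since all 9 factors reached it. Of the 9 log2 ratios, those of FOXA1 and TFAP2A changed sign under at least 1 alternative: FOXA1 ranged from -0.13 to 0.46 and TFAP2A from -1.10 to 0.028. The other ranges were 0.42 to 1.15 for GATA2, 0.29 to 1.02 for SOX9, 2.09 to 2.70 for TBX3, -6.95 to -5.22 for GATA3, -7.83 to -4.35 for TRPS1, -4.52 to -3.36 for TFAP2C and -4.67 to -2.71 for MSX2. A value was taken as moved when it differed by over 0.58, and a count when it differed by over 1.5 times. Of 391 values under the alternatives, 313 had not moved by this measure and 17 differed in sign from the value reported. The 313 include the values from summed entries, which all equalled those reported. They also include counts past the limit and ratios of single genes under the minimum of 1 RPKM, which it could not change. The shift of 0.59 from centring exceeds 0.58, so by this measure it moved every human ratio and median. In mouse the median taken off was -0.059, too small to move any value. With a pseudocount of 0.1, the paralogs had 7 genes above 2, 2 below -2 and a median of 0.82, the partners had 4 below -2, and the neighbours had 24 above 2 and 29 below -2. A minimum of 1 RPKM in 1 library left a median of 1.43 for the paralogs and -1.02 for the neighbours. Centring, which adds 0.59 to every human ratio by construction, gave medians of 0.028 for the 9 factors, 0.74 for the paralogs, -0.16 for the partners, -0.40 for the other regulators and 0.59 for the neighbours. It put 3 paralogs and 5 neighbours above 2 and 8 neighbours below -2. Quantile normalization put 1 paralog and 5 neighbours above 2 and 7 neighbours below -2. Rescaling to a common sum put 1 paralog above 2 and 10 neighbours below -2. Within 250 kb, 1 neighbour lay above 2 and 1 below -2, since fewer entries are counted, and no share was computed there. Beyond these and the shift that centring brings, the causes were not tested. No mouse gene of the 9 passed the limit under any alternative run. No paired analysis was possible because each group had 1 library. Without read totals, values near 0 such as that of TRPS1 in VCaP ERα have no known precision, and with 1 library per group neither has any difference.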
